A study of Notophthalmus viridescens with 18 samples.

Results

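A set of 91 myotube transcripts with lower levels in high serum was described in the newt cell line A1, out of 27395 entries of a de novo transcriptome. The members were chosen by their own measured values. An entry was kept if its mean normalised count in low-serum myotubes was at least 100 and at least 20 times its mean in both proliferating and senescent mononucleate cells, and if its mean in high-serum myotubes was no more than 50% of the low-serum mean. Of 3 entries that the rule drops by ID, 1 met all of these thresholds. The levels in those 4 groups are therefore given as a description, with no test. The thresholds used no levels of the myotubes grown in conditioned medium, although the scaling drew on all 18 libraries. The only test is between the 2 kinds of conditioned medium.

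A1 is a myogenic line from limb mesenchyme of Notophthalmus viridescens, and each of the 6 groups holds 3 RNA-seq libraries. PRO cells were proliferating cells in 10% FCS with DMSO as vehicle, collected on day 12. SEN cells were exposed to 20 µM etoposide, a drug that damages DNA, for 24 h and then to 1 µM nutlin, an activator of p53, and were also kept in 10% FCS and collected on day 12. All myotubes were first differentiated for 5 days in 0.25% FCS and exposed for 3 more days to 1 of 4 media. The MT_0.25% group received fresh medium with 0.25% FCS, and the MT_10% group received 10% FCS. Medium with 0.25% FCS in which PRO cells had been cultured during 48 h was given to MT_0.25%_PRO_CM (PRO_CM), and that from SEN cells to MT_0.25%_SEN_CM (SEN_CM). Myotubes were purified by size on filters and the mononucleate cells were not. The sources used here do not say whether the libraries of a group came from separate cultures, so errors measure the spread between these libraries, which may be technical.

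A myotube is the multinucleate cell made by fusion of myoblasts. Its contractile unit, the sarcomere, is built of myosin thick filaments and actin thin filaments, with titin spanning from the Z-disc to the middle, and contraction is switched on by calcium released from the sarcoplasmic reticulum. Newt myotubes are known for their ability to re-enter the cell cycle when exposed to serum, whereas mammalian myotubes stay arrested.

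The libraries held 20609828 to 62991718 estimated reads each, and all 91 members had reads in all 12 myotube libraries. Myotube markers outside the set stood where the labels place them, with creatine kinase (Ckma) at 2134 ± 318 normalised counts in MT_0.25% against 39.1 ± 11.9 in PRO (SD, n = 3). Myogenin (Myog), a transcription factor of muscle differentiation, was at 14852 ± 3656 against 2511 ± 432. In MT_10%, Ckma was at 3992 ± 209 and Myog at 16270 ± 1289. The embryonic myosins and desmin had lower means in MT_10% than in MT_0.25%, though for all but Myh3.1 the difference was within the larger SD. The embryonic myosins were at 5826 ± 1695 against 8482 ± 1596 (Myh3.1) and 6135 ± 1145 against 7429 ± 1407 (Myh3.3). The 2 desmin entries were at 54707 ± 3327 against 68182 ± 14820 and 10387 ± 1556 against 11161 ± 3040. Fast skeletal troponin C beta (comp73_c0_seq1), also outside the set, had a mean of 828 in MT_10%. Its MT_0.25% libraries held 1588, 1040 and 1555, and its MT_10% mean was 59.4% of their mean. The 17 proliferation transcripts of the study's heat-map list summed to 61.3% to 66.0% of their PRO level in the MT_10% libraries and to 9.51% to 18.4% in MT_0.25%. Another 12 entries, outside that list, had a PRO mean of at least 100 and at least 50 times that of MT_0.25%. They summed to 7.53% to 12.0% of their PRO level in MT_10% and to 0.415% to 1.19% in MT_0.25%. In the SEN libraries, also mononucleate, they summed to 20.2% to 27.2%, so they do not measure mononucleate cells as such. High-count entries weigh most in these sums, and the protease inhibitor transcript Timp1.1, with a PRO mean of 963695, meets the same thresholds. The median of the 12 was 5.54% to 7.33% in MT_10% and 0.604% to 1.31% in MT_0.25%. Since these 12 were chosen for low MT_0.25% values, and the study picked its list from the same samples, the contrast between MT_0.25% and MT_10% is a description. The part of mononucleate cells in the lower levels of the members was not tested. In bulk RNA, fewer myotubes and less RNA per myotube cannot be told apart. A comparison set was made of 79 myotube entries that met the first thresholds but not the serum threshold. In the same MT_10% libraries their median level was 72.3% of MT_0.25%. Missing that threshold holds each of them above 50%, so this median is a description too.

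The members spanned a wide range of levels in low serum, from 102 to 157604 normalised counts with a median of 1092. Their median level in MT_10% was 33.8% of MT_0.25%, with quartiles of 24.3% and 39.6% and extremes of 2.41% and 49.8%. All 91 had each MT_10% library below each MT_0.25% library. The rule fixes that direction, and 27.6% of the 23107 entries tested were separated in that way. The MT_10% means stayed above those of mononucleate cells, though not far above for every member. The MT_10% mean was above the PRO mean for all 91 and at least 5 times the PRO mean for 90, with a median of 22.7-fold over the 88 members that had any read in PRO. It was also above the SEN mean for all 91 but at least 5 times that mean for 85. The closest was comp45844_c0_seq2, with a mean of 10.4 in MT_10% and 6.97 in SEN. Summed over the members, the MT_10% libraries were at 34.4%, 35.5% and 35.9% of the MT_0.25% mean. The PRO and SEN libraries were at 0.648% to 0.874%, the PRO_CM libraries at 106% to 141% and the SEN_CM libraries at 101% to 124%.

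**Figure D1:**
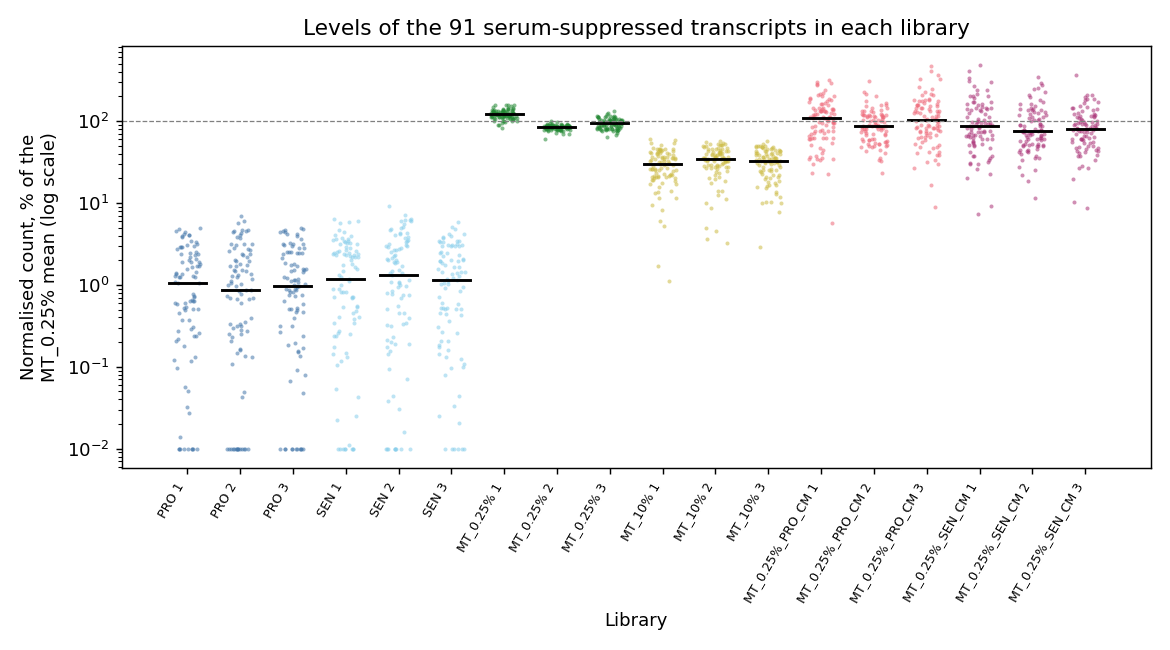
Normalised count of each of the 91 members as a percentage of its MT_0.25% mean (log scale) in the 18 libraries. Each point is a member, the black bar is the median of the library, and values under 0.01% are drawn at 0.01%. The MT_10% medians lie between 29.9% and 34.3%, and those of the conditioned-medium libraries between 74.9% and 110%.

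The MT_0.25% libraries were not alike. Replicate 1 held the highest of the 3 values for 76 of the 91 members and a summed level of 122% of the group mean, against 84.1% and 93.9% in replicates 2 and 3. Without replicate 1 the same rule kept 73 entries, of which 71 were members. Without replicate 2 it kept 111, the 91 members among them.

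Names were paired with entries by measured values, because the IDs printed in the study's table do not match the deposited libraries, and all names and lists depend on that pairing. By the closest protein hit in another species, 32 members had a named protein, 35 a hit with no informative name and 24 no hit. The functional lists, built from words in the hit names, took in 21 of the named members. No list lay wholly on one side of the serum threshold, and the comparison set held 25 entries of the same lists. Its thick filament entries, both with hits to the embryonic myosin heavy chain Myosin-3, were at 68.7% and 82.6% of MT_0.25% in MT_10%, and its metabolic enzymes, muscle creatine kinase among them, at 117% to 187%. The members with named hits are described below in the order of their roles.

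Of the thick filament, 2 members were found. Myosin-binding protein C, slow-type (comp8222_c0_seq2), which decorates the myosin filament, had 6452, 4668 and 5359 normalised counts in the MT_0.25% libraries and 1039, 1193 and 831 in MT_10%. It had 6077, 4886 and 7306 in MT_0.25%_PRO_CM, against 6819, 5828 and 4960 in MT_0.25%_SEN_CM. The MT_10% libraries stood below all the other myotube libraries, at 18.6% of the low-serum mean, while fresh and conditioned low-serum media overlapped. The entry closest to myosin light chain kinase 3 (comp2823_c0_seq1), a kinase that in mammals phosphorylates the light chain of heart myosin, had 36551, 30766 and 36178 in MT_0.25% and 13933, 13189 and 16168 in MT_10%. Its PRO conditioned-medium libraries held 45377, 56586 and 48389, and its SEN ones 41538, 38102 and 36731. Each conditioned-medium library was above each fresh-medium library, and MT_10% was again the lowest of the myotube groups.

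Of the thin filament, fast troponin I (comp81_c0_seq4), the subunit that holds actin off when calcium is low, was the only member. It was at 5820, 3664 and 3642 in MT_0.25% and at 1126, 1079 and 1058 in MT_10%, which is 24.9% of the mean. The MT_0.25%_PRO_CM libraries had 6139, 4326 and 5060 and the MT_0.25%_SEN_CM libraries 4175, 3278 and 2912. No SEN_CM value reached the lowest PRO_CM value.

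Titin (comp121524_c0_seq1), the giant elastic protein of the sarcomere, had 24026, 21720 and 28789 in MT_0.25% and 6632, 8087 and 10699 in MT_10%. It had 36272, 37429 and 31338 in MT_0.25%_PRO_CM, all above fresh medium, and 20054, 19210 and 22774 in MT_0.25%_SEN_CM. The PRO_CM mean was 141% and the SEN_CM mean 83.2% of MT_0.25%. The cytoskeletal list also held an entry with a hit to talin, which links integrins to actin. The talin entry (comp1045588_c0_seq1) was at 319, 209 and 193 in MT_0.25% and at 19.6, 27.1 and 23.9 in MT_10%, one of the 5 lowest serum ratios of the set (9.79%). Its hit is a fluke protein, and it was at 159% and 173% of MT_0.25% in the PRO and SEN conditioned media. Filamin-A-interacting protein 1 (comp680147_c0_seq3) had the highest serum ratio of this list, 45.3%, and was at 98.1% and 85.7% in the conditioned media.

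Calcium handling was represented by 4 members. Parvalbumin beta (comp98_c0_seq1), the calcium buffer of fast muscle, had 17040, 8492 and 6917 in MT_0.25% and 4798, 3787 and 3004 in MT_10%, and thus varied widely between low-serum libraries. It had 22419, 14950 and 22335 in MT_0.25%_PRO_CM, against 21816, 18299 and 11154 in MT_0.25%_SEN_CM, which overlapped with fresh medium and with each other. The entry with a hit to Ryr2 (comp46325_c0_seq1), the calcium release channel of heart muscle, had 630, 505 and 658 in MT_0.25% and 187, 169 and 227 in MT_10%. Unlike parvalbumin it had lower means in both conditioned media than in fresh medium, at 222, 510 and 200 in MT_0.25%_PRO_CM, against 136, 197 and 160 in MT_0.25%_SEN_CM. One PRO_CM library lay within the range of fresh medium, and all SEN_CM libraries lay below it. The SEN_CM mean was 27.5% of MT_0.25%, under the 32.5% of MT_10%, although the libraries overlapped. A further ryanodine receptor 2 entry, just outside the set (comp14602_c0_seq9), had means of 1007 in MT_0.25% and 255 in MT_10%. Its means of 730 in PRO_CM and 478 in SEN_CM were both above that of MT_10%. The large subunit of calpain-1 (comp40784_c1_seq9), a protease activated by calcium, and bestrophin-3 (comp232278_c0_seq1), of a family of anion channels, were at 41.3% and 39.1% in MT_10%. Calpain-1 was at 132% and bestrophin-3 at 141% of MT_0.25% in PRO conditioned medium, and at 103% and 96.5% in SEN conditioned medium.

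At the cell surface, 6 members were listed. Muscle-related coiled-coil protein (comp33604_c1_seq1, known as MURC or cavin-4), a protein of muscle caveolae, had 72719, 36162 and 36540 in MT_0.25% and 10056, 15145 and 8108 in MT_10%. It was among the most specific to myotubes, with 16.8 ± 8.83 in PRO and 3.46 ± 1.73 in SEN (SD, n = 3). Its conditioned-medium libraries, from 24294 to 31090, all lay between MT_10% and MT_0.25%. TMEM182 (comp17356_c0_seq1), a muscle membrane protein, had 24244, 12768 and 13144 in MT_0.25% and 7539, 7567 and 6285 in MT_10%, and was at 160% and 172% of fresh medium in the PRO and SEN conditioned media.

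The entry with a hit to GPR19 (comp751953_c0_seq1), an orphan G protein-coupled receptor, had the lowest level of the set relative to fresh medium in PRO conditioned medium, and the second lowest in SEN conditioned medium, after comp215328_c1_seq2. It had 5930, 2278 and 3014 in MT_0.25% and 939, 1588 and 613 in MT_10%. In PRO conditioned medium the values were 214, 1218 and 331, and in SEN conditioned medium 344, 690 and 379. Both conditioned-medium means, at 15.7% and 12.6% of fresh medium, were under that of MT_10% (28.0%), although the libraries overlapped. The Rh family C glycoprotein entry (comp26398_c0_seq2), of a family of ammonia transporters, was at 19.4% in MT_10% and at 149% and 142% in the conditioned media. A disintegrin and metalloprotease 13 (comp614892_c0_seq2) was at 33.5% in MT_10% and at 54.7% and 52.6% in the conditioned media. The glutamate receptor NMDA1 hit (comp15294_c2_seq8) was at 38.9% in MT_10% and at 117% and 94.2% in the conditioned media. The deposited length of this last entry was at most 238 bases, whereas the reading frame listed with its hit ends at base 4331.

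The metabolic list held an enzyme of nucleotide conversion and one of cyclic nucleotide breakdown. The entry closest to phosphodiesterase 2A (comp41962_c1_seq6), which degrades cyclic nucleotides and is stimulated by cGMP, had the lowest serum ratio of all members. It had 804, 559 and 558 in MT_0.25% and only 7.11, 20.8 and 18.3 in MT_10%. In PRO cells it had 2.49 ± 1.35 and in SEN cells 4.49 ± 3.49 (SD, n = 3). In conditioned media it was far above MT_10%, with 601, 523 and 657 in MT_0.25%_PRO_CM, against 404, 392 and 358 in MT_0.25%_SEN_CM. GMP reductase (comp29064_c0_seq1) was at 27.4% in MT_10% and at 116% and 105% in the PRO and SEN conditioned media.

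**Figure D2:**
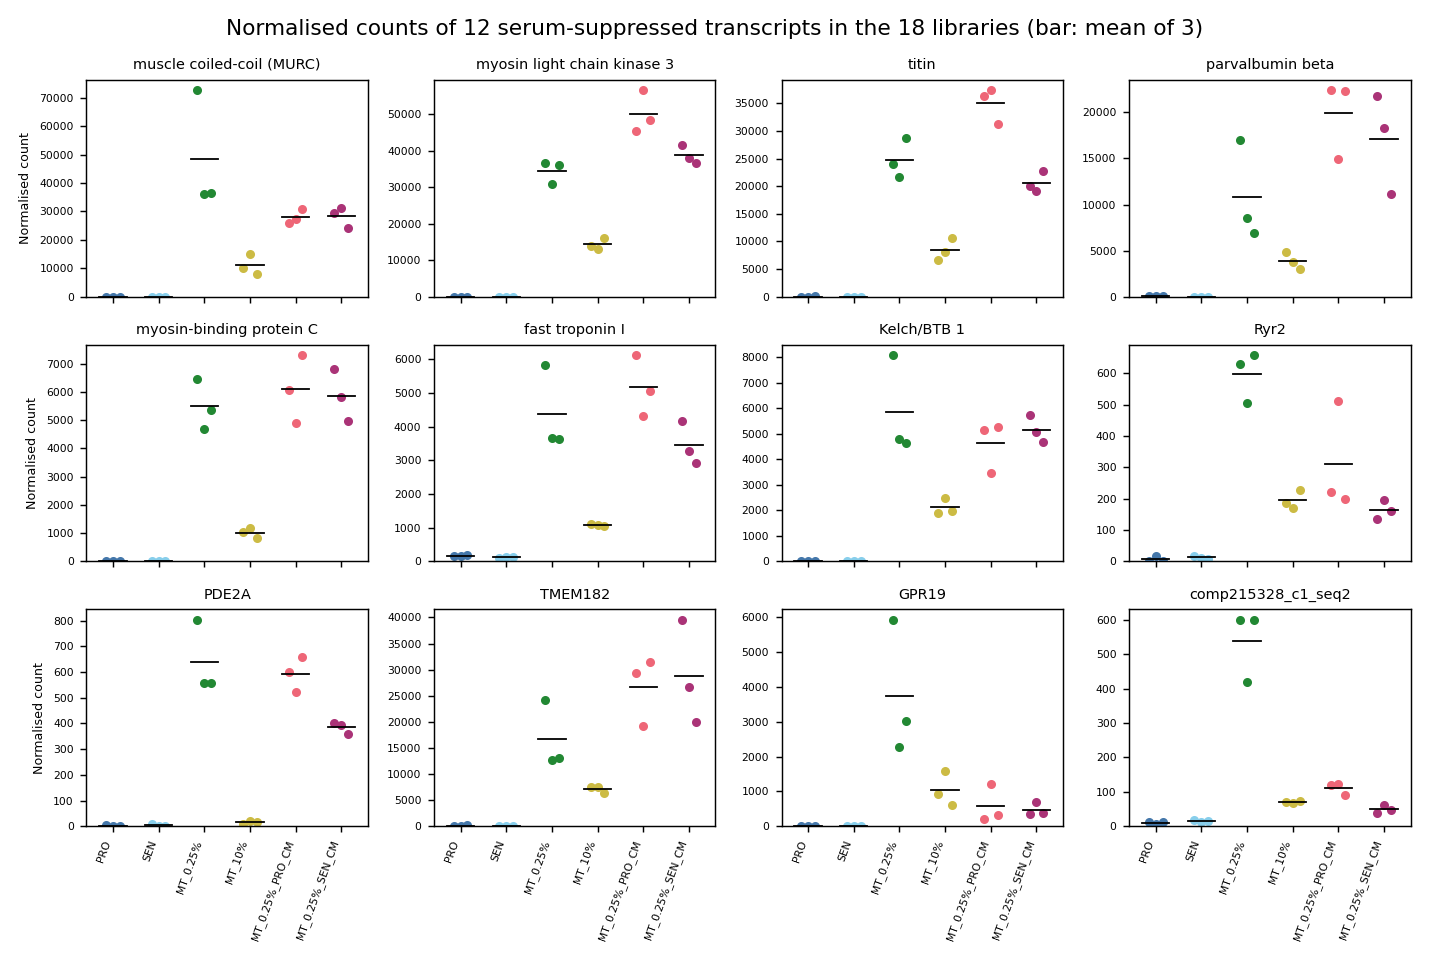
Normalised counts (linear scale) of 12 members in each of the 18 libraries, grouped by condition, with the bar at the mean of 3 libraries. PRO and SEN lie near 0 throughout, MT_10% is below MT_0.25% in every panel, and the conditioned-medium groups range from above MT_0.25% (TMEM182) to below MT_10% (GPR19).

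Among regulators, the entry with a hit to Msx2 (comp83314_c0_seq1), a homeobox transcription factor, was the most abundant member and made up 26.8% of the members' summed level in MT_0.25%. It had 193439, 132872 and 146502 in MT_0.25% and 57338, 52616 and 49988 in MT_10%. It had 250658, 139892 and 241537 in MT_0.25%_PRO_CM, against 209262, 161563 and 184016 in MT_0.25%_SEN_CM, overlapping with fresh medium. DnaJ homolog subfamily C member 1 (comp1484073_c0_seq1), a co-chaperone, was at 21.2% in MT_10% and at 74.7% and 73.0% in the conditioned media. Kelch repeat and BTB domain containing 1 (comp14837_c3_seq2), of a family whose members can serve as adaptors of ubiquitin ligases, was at 36.5% in MT_10% and at 79.3% and 88.4% in the conditioned media.

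The 11 named hits outside these lists ran from 13.9% (neuropeptide Y) to 49.3% (RILP-like protein 1) of MT_0.25% in MT_10%. They were neuropeptide Y, RILP-like protein 1, ADP-ribosylation factor-like 11, a PWI domain protein, coiled-coil domain containing 141, dynein heavy chain 14, CCDC88A, glutamine rich 2, polyadenylate-binding protein 1, FAM109A and a reverse transcriptase-like protein. Neuropeptide Y (comp37608_c1_seq2), a secreted neuropeptide singled out here after its values were seen, had 3763, 1756 and 1828 in MT_0.25% and 425, 345 and 254 in MT_10%. Its conditioned-medium means were 61.2% and 63.4% of fresh medium.

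Among the 10 most abundant members was the uncharacterized comp61036_c2_seq4, at 39.6% of MT_0.25% in MT_10% and at 88.6% and 71.0% in the conditioned media. Of the members without a named hit, 3 were among the 5 lowest serum ratios. The unnamed comp2556971_c0_seq1 was at 4.64%, the unnamed comp498566_c0_seq2 at 6.86% and the uncharacterized comp45844_c0_seq2 at 7.08% of MT_0.25% in MT_10%. Each had fewer than 200 normalised counts in MT_0.25%, so that the MT_10% means, of 4.81, 6.98 and 10.4, rest on few reads. At the other end, comp103260_c0_seq5 (49.8%), comp2441280_c0_seq1 (49.3%), RILP-like protein 1 (49.3%), comp82483_c2_seq6 (48.7%) and comp335654_c0_seq3 (48.7%) were just inside the serum threshold. The entry just outside it, comp18326_c1_seq2, had a ratio of 50.2%. For the level, the nearest entries were comp498566_c0_seq2 at 102 and comp1081926_c0_seq1 at 92.4. For the fold over PRO they were comp1152622_c0_seq1 at 21.1 and, outside, a further ryanodine receptor 2 entry (comp14602_c0_seq9) at 19.8, and for the fold over SEN comp30914_c0_seq1 at 20.7 and comp24914_c1_seq1 at 19.6.

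The deposited length and the component numbers in the entry IDs did not enter the rule directly. Normalised counts were not divided by length, however, so the threshold on the level can favour long entries. All entries did not have to meet that threshold, so the lengths of members against all entries are a description. The comparison set met the same threshold on the level. The median length of the members was 1336 bases, against 853 in the comparison set and 706 over all entries. The upper quartile was 3883 bases in the members and 2482 in the comparison set. Of the 91 members, 31 (34.1%) were 3000 bases or longer, against 12.1% of all entries tested. No 2 members shared a component number, so none are listed as variants of 1 assembled locus. The 2 entries with hits to desmin, comp1273_c0_seq2 and comp654_c0_seq1, also differ in component number, so different numbers do not establish different genes. The study's transcript table gives a reading frame for each hit, and for 55 members it ended within the longest deposited length, which varies between libraries. For the other 36, titin, Ryr2, talin, GPR19 and the NMDA1 hit among them, it ended beyond that length, and their names are less certain.

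In conditioned medium the members ranged from far below to far above fresh medium, and so did the comparison set. Since the rule holds the MT_10% levels to 50% or less, the widths of the ranges in MT_10% and in conditioned medium cannot be compared. The fresh-medium libraries that chose the members also serve as the reference here, and both conditioned media are set against the same 3 libraries, so these values are descriptions. The median level was 98.4% of MT_0.25% in MT_0.25%_PRO_CM, with extremes of 15.7% and 331%, and 80.7% in MT_0.25%_SEN_CM, with extremes of 9.10% and 396%. The summed level, in which the most abundant members weigh most, was instead above fresh medium, with means of 127% in PRO_CM and 110% in SEN_CM. Without the most abundant member these means were 124% and 107%. The fresh libraries themselves spanned 84.1% to 122%. Over all 23107 entries tested the medians were 98.9% and 93.3%, and in the comparison set 75.8% and 64.5%, with extremes of 12.8% and 349% in PRO_CM and of 8.75% and 571% in SEN_CM. All 3 PRO_CM libraries lay below all 3 fresh ones for 26 members (28.6%; 19.1% of all entries) and above them for 13 (14.3%; 18.3% of all entries). For SEN_CM the counts were 39 below (42.9%; 28.4% of all entries) and 14 above (15.4%; 26.4% of all entries). In the comparison set the shares below were larger, 50.6% in PRO_CM and 54.4% in SEN_CM. The PRO_CM mean was above the fresh-medium mean for 45 members (49.1% of all entries were) and the SEN_CM mean for 33 (45.5%). It was at most 50% of fresh medium for 12 members in PRO_CM (9.12% of all entries) and 16 in SEN_CM (15.8%), and at least 2 times fresh medium for 6 (6.76%) and 7 (9.30%). Every PRO_CM library was above every MT_10% library for 83 members (31.2% of all entries) and every SEN_CM library for 79 (28.4%), where the MT_10% values were used by the rule. The size of the shares depends on the scaling. In TPM, where each library sums to the same total, the members' medians were 71.3% and 45.4%, and those over all entries 70.3% and 50.1%. By TPM, 47 members lay below fresh medium in PRO_CM (30.8% of all entries) and 6 above (7.13%), and 75 lay below in SEN_CM (59.1%) and 7 above (1387 of the 23107 entries).

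**Figure D3:**
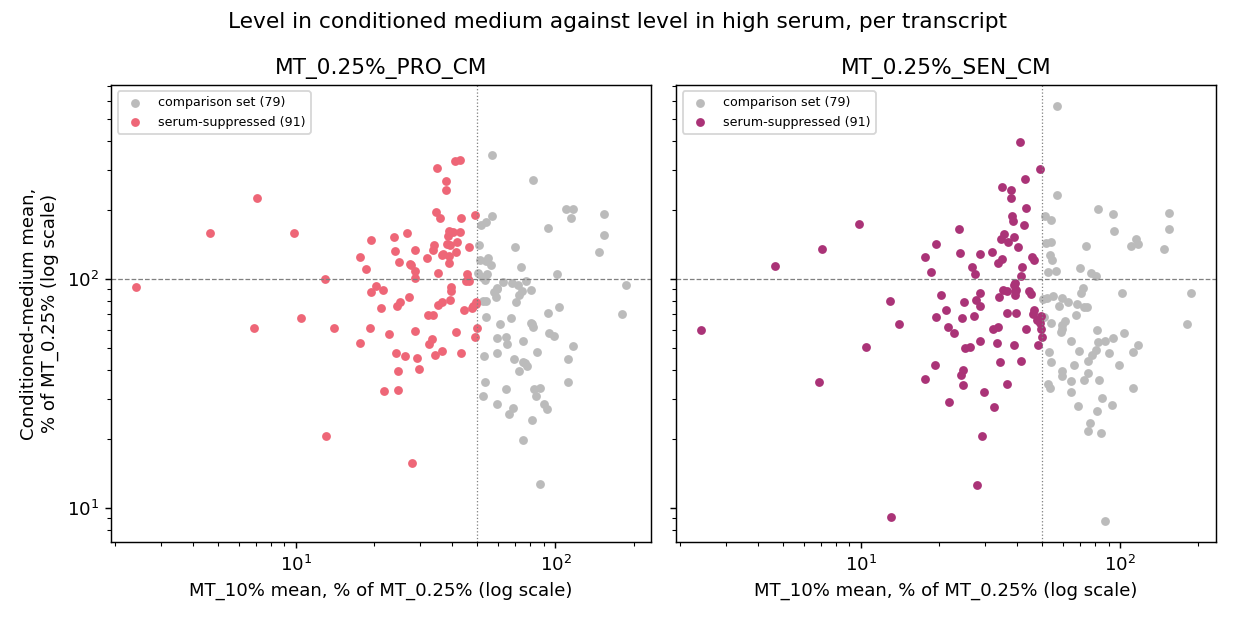
Mean of MT_0.25%_PRO_CM (left) or MT_0.25%_SEN_CM (right) against the mean of MT_10%, each as a percentage of MT_0.25% (log scales), for the 91 members (coloured) and the 79 entries of the comparison set (grey). The dotted line marks the serum threshold at 50% and the dashed line the level of fresh medium. Members spread on both sides of the dashed line, from 15.7% to 331% on the left and from 9.10% to 396% on the right.

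Some members stood far above fresh medium in both conditioned media. The uncharacterized comp9624_c0_seq1 had no read in any PRO or SEN library and 8372, 5515 and 5287 normalised counts in MT_0.25%. It was at 19212, 13822 and 30075 in MT_0.25%_PRO_CM, against 30789, 21993 and 23225 in MT_0.25%_SEN_CM, all above fresh medium, and at 3742, 1803 and 2289 in MT_10%. The unnamed comp454050_c0_seq1 had 31354, 24026 and 22726 in MT_0.25% and 71200 to 107421 in PRO and 54278 to 87473 in SEN conditioned medium. Next in order were the dynein heavy chain 14 hit (comp2615390_c0_seq1, 304% and 252%), comp206075_c1_seq4 (269% and 244%) and comp335654_c0_seq3 (191% and 302%). In all, 8 members were above every fresh-medium library in both media, a class that held 13.5% of all entries. By TPM the count was 5 (4.21% of all entries).

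Others were low in conditioned medium as well as in high serum. After GPR19, the lowest were the uncharacterized comp215328_c1_seq2 (20.7% in PRO and 9.10% in SEN conditioned medium), comp71337_c0_seq2 (32.3% and 29.1%), comp60462_c0_seq1 (45.1% and 20.6%) and the unnamed comp1421628_c0_seq1 (32.8% and 34.5%). In both media, 25 members were below every fresh-medium library, against 12.3% of all entries. Of the 79 entries of the comparison set, 38 were (48.1%). In TPM the members' count was 47 (26.5% of all entries).

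The member thresholds did not use the 2 groups in the test of senescent against proliferating conditioned medium. The test is not fully independent of the choice, since its fit drew on all 18 libraries and earlier results of these data were known. By edgeR's quasi-likelihood test over 23107 entries, all 91 members among them, 4 members were lower in MT_0.25%_SEN_CM and none was higher at an adjusted p under 0.05. Over all entries, 5.34% were lower and 3.00% higher (8.34% in either direction), and the members' share called lower was 4.40%. This share stayed near the background with RLE scaling (4.40% against 5.18% of all entries), without the filter (4.40% against 4.17%) and with a replicate block (4.40% against 4.66%). With 1 library left out it was 2.20% to 6.59%, against 1.63% to 5.73%. Other alternatives moved it further, to 13.2% (12 members) against 5.94% of all entries with only the 6 libraries of the 2 groups. Limma gave 34.1% (31) against 8.21% on log2(TPM + 1) and 15.4% (14) against 7.56% on log2(TPM + 0.1). DESeq2 called 8.79% of the members (8) against 5.17% of all entries lower. It called no member higher, and 1075 of all 27178 entries. At an unadjusted p under 0.05, 18 members were lower (14.0% of all entries were) and 1 was higher (11.4% of all entries). The median log2 fold change of the members was -0.20, and 68 of the 91 were negative. Over all entries tested the median was 0.03 with 47.9% negative, and in the comparison set it was -0.08 with 42 of 79 negative. Members measured in the same libraries are not replicates. Per library, the members' median was 85.9% to 110% of MT_0.25% in PRO_CM and 74.9% to 86.2% in SEN_CM, so the 2 media overlapped.

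None of the 4 members called has an informative name. The uncharacterized comp215328_c1_seq2 had 121, 124 and 89.9 normalised counts in MT_0.25%_PRO_CM, against 39.2, 61.3 and 46.7 in MT_0.25%_SEN_CM, where all values were lower (log2 fold change -1.18 ± 0.24 SE, adjusted p = 0.00563). In comp481860_c0_seq1 the values were 307, 382 and 243 against 122, 126 and 132 (-1.30 ± 0.27, adjusted p = 0.00606). This entry was thus at 51.5% of fresh medium in SEN and at 127% in PRO conditioned medium. The long comp24782_c0_seq1, with a deposited length of up to 30054 bases, had 20383, 27772 and 19743 against 11853, 11889 and 14411 (-0.83 ± 0.21, adjusted p = 0.0195). The unnamed comp137058_c0_seq8 had 16658, 11038 and 12108 against 6795, 6073 and 9137 (-0.86 ± 0.24, adjusted p = 0.0294). In each of the 4, all SEN_CM libraries lay below all PRO_CM libraries, as they did for 20 members in all (22.0%; 14.9% of all entries). All SEN_CM libraries lay above for 1, glutamine rich 2 (14.7% of all entries). The calls of comp24782_c0_seq1 and comp137058_c0_seq8 did not hold without some single libraries. The first was lost without PRO_CM replicate 2, SEN_CM replicate 1 or SEN_CM replicate 2 (adjusted p up to 0.101), and the second without PRO_CM replicate 1, SEN_CM replicate 1 or SEN_CM replicate 2 (up to 0.156).

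**Figure D4:**
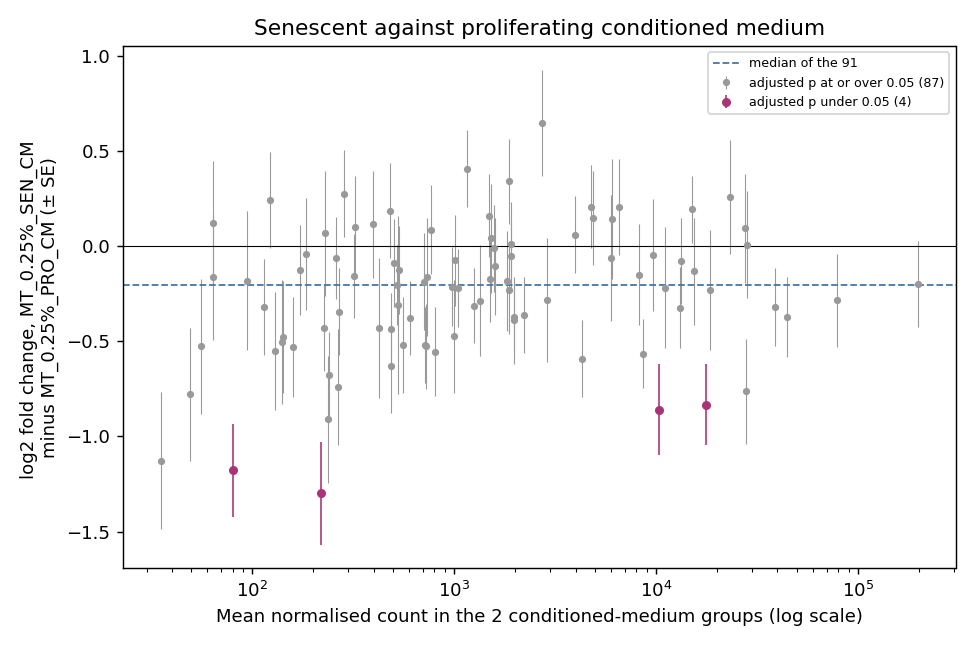
Fitted log2 fold change of each member, MT_0.25%_SEN_CM minus MT_0.25%_PRO_CM (points, with bars of 1 SE), against its mean normalised count in the 2 conditioned-medium groups (log scale). The 4 members with an adjusted p under 0.05 are coloured and lie between -1.30 and -0.83, and the dashed line at -0.20 is the median of the 91.

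The muscle proteins described above did not pass this test. Titin had a log2 fold change of -0.76 (approximate 95% interval -1.31 to -0.22, adjusted p = 0.0890). Ryr2 was at -0.91 (-1.56 to -0.26, adjusted p = 0.0904) and fast troponin I at -0.59 (-0.99 to -0.19, adjusted p = 0.0740). In each of these 3, every SEN_CM library was below every PRO_CM library. Phosphodiesterase 2A was at -0.63 (-1.11 to -0.15, adjusted p = 0.112). In contrast, MURC was at 0.01 (-0.55 to 0.56, adjusted p = 0.989) and myosin-binding protein C at -0.06 (-0.71 to 0.59, adjusted p = 0.927), intervals that allow differences in either direction. The members of at least 3000 bases had a median of -0.22 and those under 1000 bases of -0.20, where all entries tested of these lengths had 0.06 and -0.05.

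Proliferation transcripts and the 12 entries high in PRO cells differed between the same libraries. The proliferation list summed to 19.9% to 23.2% of its PRO level in MT_0.25%_SEN_CM and to 8.94% to 10.2% in MT_0.25%_PRO_CM. The 12 entries summed to 1.09% to 1.62% and to 0.392% to 0.620%, sums in which high-count entries weigh most. Their median was 1.24% to 2.06% in MT_0.25%_SEN_CM and 0.561% to 1.07% in MT_0.25%_PRO_CM. Their part in the lower median of the members was not tested. One entry that is no member took 24.9% of the reads of PRO_CM replicate 2. The largest entry took 14.0% in replicate 1 and 12.0% in replicate 3. Replicate 2 held the lowest value of that group for 60 of the 91 members, and a link with this entry was not tested.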

How the data were processed

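RNA-seq of 18 libraries was analysed from the table deposited for each. The authors trimmed reads (Trim Galore, per the submitters' processing notes) and quantified each library with Sailfish against a de novo transcriptome. Versions are not given in the sources used here, and no genome build applies. The deposited estimated counts (not normalised, not whole) were rounded, and the deposited TPM served as an alternative. Estimated counts per library ran from 20609828 to 62991718.

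Normalised counts are rounded counts over median-ratio size factors from entries with reads in all 18 libraries. Members and lists were chosen with earlier results of these data known. Names come from the study's supplementary transcript table. Its printed IDs matched the files' values in 0 of 1924 rows, so rows were paired with entries by their PRO and MT_0.25% means, to 6 digits. Of 1985 rows, 1924 matched 1 entry, and all 91 members were matched. If the names belong to the printed IDs instead of the values, the names given here are wrong. Hits are the closest protein of another species. Entry sequences were not used here.

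All 18 libraries entered 1 quasi-likelihood fit in edgeR 4.0.16 under R 4.3.3, scaled by TMM after filterByExpr, with a mean for each group. Benjamini-Hochberg adjustment ran over the 23107 entries that passed. SE was derived from the fold change and its F statistic. The 95% intervals span 1.96 SE on each side and are approximate, somewhat narrower than the F test implies. For comp17956_c0_seq1 the interval was 0.01 to 0.80 with an unadjusted quasi-likelihood p of 0.0586. Named are members of the functional lists, the 10 highest in MT_0.25%, 5 at each end of the serum ratio and of the conditioned-medium share, called members (up to 15), and entries nearest each threshold. Scripts were tested on simulated data. Alternatives were RLE scaling, DESeq2 1.42.0, no filter, 6 libraries, a fit with the replicate number as a block, limma 3.58.1 on log2 TPM with pseudocounts of 1 and 0.1, other thresholds, and leaving out each library. No overlap of libraries under TMM and TPM was added after seeing the data.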

Additional observations from a re-analysis of the deposited data

How the results depend on the processing

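The count of members called lower in SEN than in PRO conditioned medium was 4 by edgeR with all libraries. It ranged from 2 to 6 when 1 library was left out, where 1.63% to 5.73% of all entries were called lower. Without SEN_CM replicate 1 it was 2 (2.20%, against 2.25% of all entries), as without SEN_CM replicate 2 (2.20% against 1.63%). It was 8 with DESeq2 (5.17% of all entries), 12 with only the 6 libraries of the 2 groups (5.94%), 31 with limma on log2(TPM + 1) (8.21%) and 14 on log2(TPM + 0.1) (7.56%), so that the members' share was near the background in the edgeR fit of all libraries and above it in these. No member was called higher under any alternative. Few of all entries were either, from 76 of 23107 with limma on log2(TPM + 0.1) to 1075 of 27178 with DESeq2. The members' median log2 fold change, -0.20, was -0.49 and -0.55 in the TPM fits, where the median of all entries moved to -0.20 and -0.33, and from -0.29 to -0.12 with 1 library left out. With the replicate block, 4 members were called (4.40%, against 4.66% of all entries called lower), the same 4, with a median of -0.19. Same-numbered libraries of the 2 media did not deviate together (correlations of 0.18, 0.04 and -0.22), so the numbers are not taken to pair them.

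A serum threshold of 1/3 left 43 members and one of 1/1.5 gave 123. A 40-fold threshold over PRO and SEN left 58 and a 10-fold one gave 125. Leaving out 1 library of MT_0.25% or MT_10% gave 73 to 111. The median level was 71.3% of MT_0.25% in PRO and 45.4% in SEN conditioned medium by TPM. With 1 library left out it ranged from 92.1% to 108% and from 75.4% to 89.7%, the highest SEN value without MT_0.25% replicate 1. Members above fresh medium in both media were 5 by TPM against 8, and members below were 47 against 25. The comp215328_c1_seq2 and comp481860_c0_seq1 calls held under all 13 alternatives, and that of comp24782_c0_seq1 was also lost by limma on log2(TPM + 0.1).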
